A study of Mus musculus with 31 samples.

Results

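The 8 genes Snai1, Snai2, Zeb1, Zeb2, Twist1, Cdh1, Cdh2 and Cdh11 were followed through mouse neural stem cells, medulloblastoma stem cell cultures and medulloblastoma tissue. They were chosen by name, as the factors of the epithelial to mesenchymal transition and the cadherins it exchanges, and are 8 of the 18194 genes measured. Each was read from its probe set with 1 gene symbol and the highest mean over all 31 arrays. All mice were C57BL/6 by label. Neural stem cells (NSC) had been grown as neurospheres, free-floating spheres kept in EGF and FGF2, from the subventricular zone (SVZ), the IV ventricle region and the cerebellar white matter at postnatal day 7, with 3 biological replicates per region and WT in their names. Cultures called cancer stem cells came, under the same conditions, from 8 medulloblastomas of Ptch het p53 wt mice (74, 91, 92, 9, 49, 68, 77 and 83), here called lines, and for each the matched tumour tissue was measured. Tumours 27 and B, from Ptch het p53 het mice, are analysed here as cultures, and the 3 technical replicate arrays of each entered as their mean. The age of the tumour-bearing mice and the way the lines were derived were not given in the sources used here. All tumour samples therefore share the Ptch het genotype, which the NSC lack, and the state of the remaining p53 copy in tumours 27 and B is not given by the labels.

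Snail (Snai1, Snai2) and Zeb (Zeb1, Zeb2) proteins are zinc finger repressors that bind E-boxes, short motifs in promoters, and Twist1 is a basic helix-loop-helix factor that also binds E-boxes. Their best known target is Cdh1, the gene of E-cadherin, the adhesion protein of epithelia. In the epithelial to mesenchymal transition, cells can lose E-cadherin and gain N-cadherin (Cdh2) or cadherin-11 (Cdh11). Neuroepithelial cells carry N-cadherin, and in the brain these genes can also be read as marks of progenitor, neural crest and mesenchymal character.

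The motif was also looked for in promoters of the factors themselves. The 250 bases before the start site are given below for the 3 members that the RefSeq promoter table (GRCm38.p6) holds and that are used here, each written 5′ to 3′ on the strand of the gene. The windows are chr2:167537945-167538194 on the plus strand for Snai1, chr12:33957421-33957670 on the plus strand for Twist1 and chr2:45117443-45117692 on the minus strand for the outermost of 4 Zeb2 starts. Capitals mark the E-box hexamer CACCTG or its reverse complement CAGGTG, the form that Snail and Zeb proteins bind.
Snai1: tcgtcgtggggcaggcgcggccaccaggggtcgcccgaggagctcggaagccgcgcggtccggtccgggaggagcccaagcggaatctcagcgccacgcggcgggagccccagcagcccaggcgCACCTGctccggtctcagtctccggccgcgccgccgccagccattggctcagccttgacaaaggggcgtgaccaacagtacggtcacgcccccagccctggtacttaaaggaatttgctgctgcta
Twist1: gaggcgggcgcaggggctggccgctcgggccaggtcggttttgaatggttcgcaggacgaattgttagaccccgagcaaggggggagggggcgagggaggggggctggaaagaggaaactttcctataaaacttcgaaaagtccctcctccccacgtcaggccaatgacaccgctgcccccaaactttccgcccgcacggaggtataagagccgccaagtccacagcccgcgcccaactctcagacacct
Zeb2: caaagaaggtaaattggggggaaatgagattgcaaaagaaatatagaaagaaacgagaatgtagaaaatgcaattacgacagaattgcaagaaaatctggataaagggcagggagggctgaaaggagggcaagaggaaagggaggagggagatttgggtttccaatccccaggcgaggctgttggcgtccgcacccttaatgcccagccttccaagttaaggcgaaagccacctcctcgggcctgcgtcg
The Snai1 window holds 1 such hexamer, at 167538069 to 167538074, whose first base lies 126 bases before the start. The Twist1 window and all 4 Zeb2 windows hold 0. Of 32851 windows of this length in the table, 17.2% hold at least 1 hexamer in either orientation, and the 2 hexamers cannot overlap each other. The wider pattern CANNTG, which includes both, was found in 66.2% of windows, once in that of Snai1 and in none of those of Twist1 and Zeb2. The Snai1 and Twist1 windows are 70% and 62.4% G or C, above the 52.4% of the median window. The Zeb2 window shown is 49.6% G or C, and the other 3 are 54%, 55.6% and 57.6%. A match is a description of letters, not a site shown to be used.

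Levels are RMA log2 intensities, so that 1 unit stands for a 2-fold change. Array medians lay between 3.17 and 3.32. A difference is given as log2 difference ± SE of the limma fit, and is called at an adjusted p under 0.05 over all 18194 genes. Probe sets differ in brightness, so that levels are compared between samples and not between genes. As a rough guide to unexpressed genes, 7 Y-linked genes in the 15 samples with an Eif2s3y level under 2 read 0.72 to 3.45, with a median of 1.49. Of these, Eif2s3y, Kdm5d and Uty read at most 1.67, while Sry read at least 2.80. The range thus also holds differences in brightness between probe sets, and a reading within it may or may not be background. Ptch1 read 7.99 to 8.62 in the 6 hindbrain NSC, 5.72 to 7.75 in the 8 p53 wt lines, 5.75 and 7.58 in the p53 het tumours and 7.67 to 9.02 in tissue. Whether its probe set lies in the altered part of the gene is not known here, and no probe set carried the single symbol Trp53, so that neither genotype was checked. In bulk RNA, fewer cells of a type and less RNA per cell cannot be told apart. The labels do not say whether biological replicates came from separate mice or litters, so the p-values measure the spread between these samples.

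**Figure D1:**
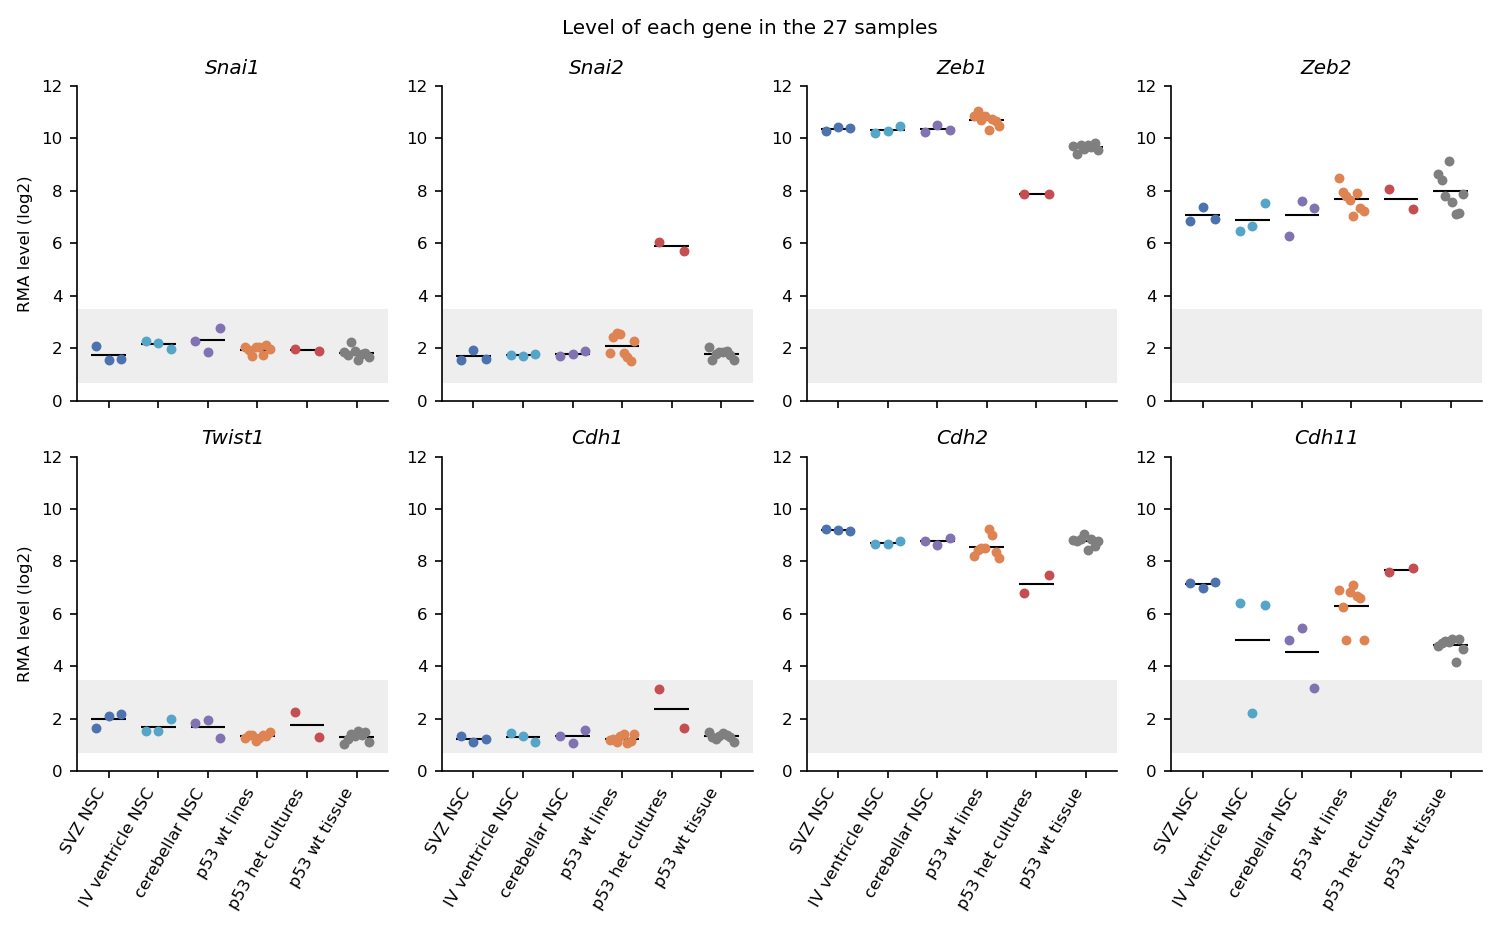
RMA log2 level of each of the 8 genes (y axis) in the 27 samples by group (x axis), 1 point per sample and a bar at the group mean; the grey band is the range of unexpressed Y-linked probe sets, 0.72 to 3.45. Zeb1, Zeb2 and Cdh2 lie above the band in all 27 samples, Snai1, Twist1 and Cdh1 within it in all 27, and Snai2 leaves it in the 2 p53 het tumours.

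The members fell into readings mostly above the guide range and readings mostly within it. Zeb1, Zeb2 and Cdh2 lay above this range in 27 of 27 samples and Cdh11 in 25 of 27. Snai1, Twist1 and Cdh1 lay within it in 27 of 27 and Snai2 in 25 of 27. Over all samples Zeb1 ran from 7.87 to 11.04, Zeb2 from 6.29 to 9.14, Cdh2 from 6.79 to 9.24 and Cdh11 from 2.21 to 7.76.

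The first comparison asks whether the region of origin sets these genes apart in NSC. Of the 8 members, 0 were called between IV ventricle and cerebellar NSC, where 0% of all genes were called, and 0 had an unadjusted p under 0.05, against 559 of all genes. Against SVZ NSC, 0 of 8 were called in IV ventricle NSC (0.764% of all genes) and 0 of 8 in cerebellar NSC (1.1% of all genes). An unadjusted p under 0.05 was reached by 1 and 3 members, against 1730 and 2498 of all genes. Both of these comparisons use the same 3 SVZ cultures.

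N-cadherin came closest. Cdh2 read 9.22, 9.20 and 9.17 in the 3 SVZ cultures, 8.68, 8.68 and 8.78 in those of the IV ventricle and 8.76, 8.64 and 8.91 in those of the cerebellum. Every SVZ culture lay above every hindbrain culture. The difference from SVZ was -0.48 for the IV ventricle (SE 0.09, adjusted p = 0.0612) and -0.43 for the cerebellum (SE 0.09, adjusted p = 0.078), neither of which passed the threshold. The cerebellar difference was called with the mark as a block (-0.43, adjusted p = 0.0459) and with the mean of all probe sets (-0.51, adjusted p = 0.026), and that of the IV ventricle with a trended robust prior (-0.48, adjusted p = 0.036). The second Cdh2 probe set read 7.52 to 7.84 in SVZ, 7.22 to 7.32 in IV ventricle and 6.98 to 7.17 in cerebellar cultures. Sample names end in a mark that reads like a date, and cultures that share a mark can be set side by side. Within the mark that holds 5 of the 9 cultures, cerebellar Cdh2 lay 0.51 below SVZ (8.70 against 9.21), and within the mark that holds 1 culture per region it lay 0.26 below.

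Cadherin-11 varied more among the hindbrain cultures than any other member. Cdh11 read 7.19, 6.97 and 7.23 in SVZ, 6.43, 2.21 and 6.33 in IV ventricle and 4.99, 5.46 and 3.17 in cerebellar cultures. The SVZ cultures lay together and above all 6 hindbrain cultures, while IV ventricle replicate 2 and cerebellar replicate 3 fell into the guide range. The cerebellar difference of -2.59 (SE 1.01, adjusted p = 0.306) did not pass. With the mark as a block, or in a fit of the 2 groups alone, the same difference was called (adjusted p = 0.0154 and 0.048). IV ventricle replicate 2 is also the only NSC culture with its mark.

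The other members did not separate the regions. Zeb1 read 10.22 to 10.50 over the 6 hindbrain cultures and 10.29 to 10.43 in SVZ. Zeb2 read 6.29 to 7.61 and 6.85 to 7.40. Snai1, Snai2, Twist1 and Cdh1 stayed within the guide range in all 9 cultures.

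The second comparison asks how the lines of Ptch het p53 wt tumours differ from hindbrain NSC, taken as the average of both hindbrain regions. Among these genes 1 of 8 was called, where 9.56% of all genes were called, 3.51% higher and 6.06% lower. Centring each array on its median turned the split of all called genes from 638 higher and 1102 lower to 787 and 843. A further 4 members had an unadjusted p under 0.05, which is 5 of 8 in all, against 4167 of the 18194 genes. Of these members, Snai1 and Twist1 lay within the guide range in every sample.

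Zeb1 was the member called. Its level was 10.26, 10.50 and 10.33 in cerebellar cultures and 10.22, 10.30 and 10.46 in those of the IV ventricle, against a lowest value of 10.32, a median of 10.74 and a highest of 11.04 in the 8 lines. The groups overlapped, with the lines of tumours 49 and 83 (10.32 and 10.46) inside the NSC range. The difference was 0.36 ± 0.10 (adjusted p = 0.0245). It was lost in 8 of 23 alternatives, among them the mark as a random block (0.36, adjusted p = 0.0741), the mean of all Zeb1 probe sets (0.15, adjusted p = 0.219) and leaving out IV ventricle replicate 1 or 2 or cerebellar replicate 1 or 3. Of the other bright Zeb1 probe sets, 1443005_at differed by 0.29 ± 0.11 (adjusted p = 0.106) and 1446127_at by -0.02 ± 0.13 (adjusted p = 0.965). No line shares a name mark with an NSC culture, so that mark and group cannot be told apart here. The 4 lines of one mark read 10.71 to 11.04 and the 4 of the other 10.32 to 10.76.

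Zeb2 depended on the probe set. The main one, 1422748_at, read 6.29 to 7.61 in hindbrain NSC and 7.03 to 8.49 in the lines, with a median of 7.73, and its difference of 0.70 ± 0.25 missed the threshold (adjusted p = 0.0962). The probe sets 1434298_at (0.50 ± 0.12, adjusted p = 0.0138) and 1458941_at (0.47 ± 0.13, adjusted p = 0.0392) were called higher in the lines, in a fit over all probe sets. For 1456389_at the difference was 0.43 ± 0.14 (adjusted p = 0.0604), and 1454200_at lay in the guide range. With the mean of the 5 probe sets Zeb2 was called (0.39, adjusted p = 0.0312), and also without IV ventricle replicate 3 (0.86, adjusted p = 0.0457).

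Cadherins of the lines spread widely without a call. Cdh11 read 6.91, 6.26, 5.0 and 6.84 in the lines of tumours 74, 91, 92 and 9, and 7.09, 6.68, 6.59 and 4.99 in those of 49, 68, 77 and 83. The lines of 92 and 83 stood apart at the low end, within the spread of hindbrain NSC. The difference from hindbrain NSC was 1.53 ± 0.58 (adjusted p = 0.113). Cdh2 read 8.11 to 9.24 in the lines, with a median of 8.47, and 8.64 to 8.91 in hindbrain NSC. The lines of 49 and 68 were highest for Cdh2, at 9.24 and 9.02. Cdh1 stayed at 1.07 to 1.40 in all 8 lines. Snai2 read 1.49 to 2.57 and Snai1 1.68 to 2.10 in the lines, both within the guide range.

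Set against SVZ NSC instead, 1 of 8 members was called, where 5.85% of all genes were. This comparison uses the same 8 lines. It was Twist1, at 1.15 to 1.49 in the lines and 1.66, 2.11 and 2.16 in SVZ cultures, lower by -0.64 ± 0.18 (adjusted p = 0.0415). All these readings lie within the guide range, and the call was lost in 10 of 17 alternatives, among them leaving out any single line but those of 68 and 83, or SVZ replicate 2 or 3 (adjusted p up to 0.214). Cdh2 was not called (-0.65 ± 0.20, adjusted p = 0.0666), but was without the line of 49 (-0.75, adjusted p = 0.0111) or of 68 (-0.72, adjusted p = 0.0344). Zeb1 was called without the line of 49 (0.39, adjusted p = 0.0312).

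The third comparison sets the 2 Ptch het p53 het tumours beside the 8 Ptch het p53 wt lines, all grown as cultures. Snai2 rose by 3.81, Cdh1 rose by 1.15, Zeb1 fell by 2.84 and Cdh2 fell by 1.40. In all, 4 of 8 members were called, where 26.3% of all genes were, 14.5% higher and 11.8% lower. Against hindbrain NSC, which uses the same 2 tumours, 5 of 8 were called, where 26.8% of all genes were. With 2 tumours the group was assumed to vary like the other cultures. The name marks of these arrays occur in no other group, so that mark and genotype cannot be told apart. With the mark as a random block the differences of these 4 genes from the lines were 3.81, 1.15, -2.84 and -1.40, and all 4 were called. Each tumour carried a mark of its own in that fit, so the fit cannot separate mark from genotype either.

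Snai2 encodes Slug, a member of the Snail family. It read 5.93, 6.30 and 5.90 on the 3 arrays of tumour 27 and 5.94, 5.71 and 5.51 on those of tumour B. The 8 lines read 1.49 to 2.57, with a median of 2.04, and the 6 hindbrain NSC 1.70 to 1.89. Both tumours were above every other sample, and every other sample was within the guide range. Snai2 was 3.81 ± 0.24 higher than in the lines (adjusted p = 2.69e-09) and 4.11 ± 0.24 higher than in hindbrain NSC (adjusted p = 1.74e-09). Since the lower groups lie within the guide range, the size may rest on a background reading. The name of the main probe set, 1447643_x_at, marks it as one whose probes may also match other transcripts. The other probe set, 1418673_at, read 3.59 and 3.93 in the 2 tumours and 1.39 to 2.08 in the 8 lines, and was higher by 1.98 ± 0.15 (adjusted p = 2.94e-08). Snai1, the other Snail gene, read 1.90 and 1.95 in the 2 tumours and was not called.

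Zeb1 moved the opposite way. It read 7.90, 7.99 and 7.73 in tumour 27 and 7.88, 7.82 and 7.91 in tumour B, against 10.32 to 11.04 in the lines. The tumours agreed within their technical spread, and both lay below all 25 other samples, the lowest of which was a tissue at 9.41. The difference was -2.84 ± 0.14 from the lines (adjusted p = 2.15e-10) and -2.47 ± 0.15 from hindbrain NSC (adjusted p = 1.74e-09). The bright probe sets gave the same direction, with -2.31 ± 0.16 (adjusted p = 8.38e-09) for 1443005_at and -3.68 ± 0.19 (adjusted p = 3.80e-10) for 1446127_at. The remaining one, 1420243_at, read 1.07 to 1.80 in the lines, within the guide range, and was not called.

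Zeb2, the second Zeb gene, was not called. It read 8.07, 8.13 and 7.98 in tumour 27 and 7.90, 7.11 and 6.85 in tumour B. The tumour means, 8.06 and 7.29, lay inside the 7.03 to 8.49 of the lines, and 1 array of tumour B lay below it. The main probe set differed by -0.01 ± 0.37 (adjusted p = 0.993). Of its 5 probe sets 1 was called, 1456389_at at -0.88 ± 0.20 (adjusted p = 0.00341), with 5.32 and 6.18 in the 2 tumours against 6.29 to 6.88 in the lines. Twist1 read 1.94, 3.09 and 1.68 in tumour 27 and 1.07, 1.31 and 1.54 in tumour B. Its difference of 0.44 ± 0.21 was not called (adjusted p = 0.145). Without tumour B it was called (0.90, adjusted p = 0.00918), and without tumour 27 it was -0.03.

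**Figure D2:**
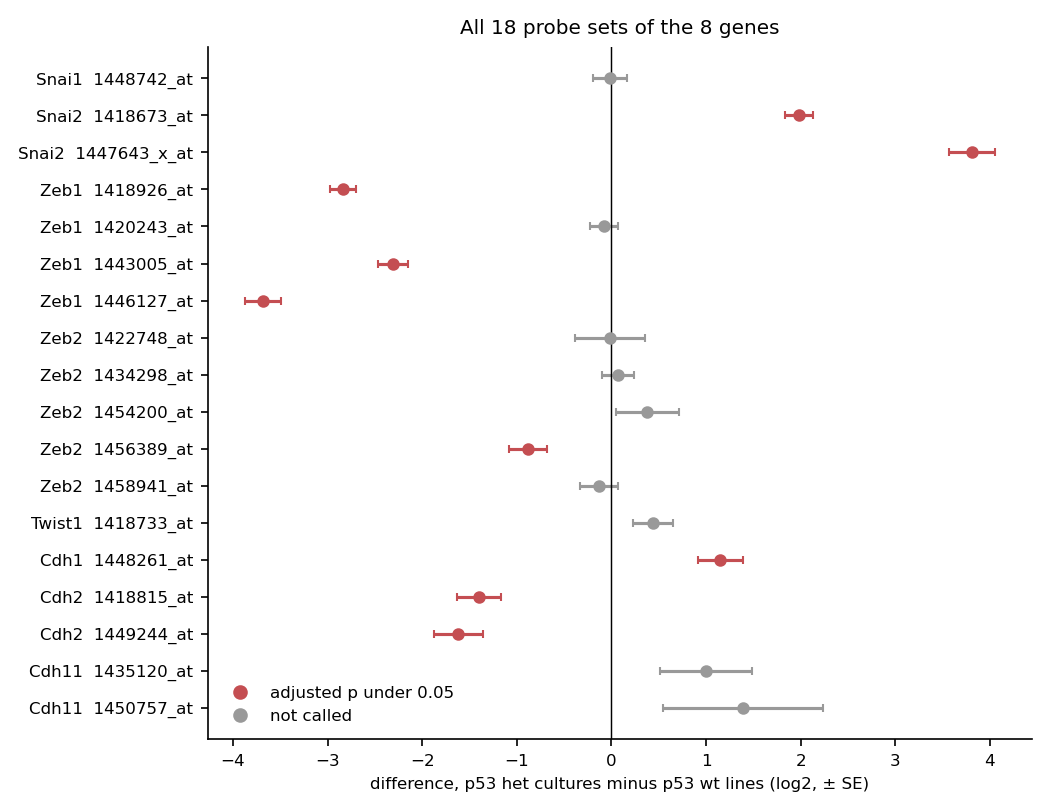
Log2 difference (x axis, ± SE) between the 2 p53 het tumours and the 8 p53 wt lines for all 18 probe sets of the 8 genes (y axis), from a fit over all probe sets; red points have an adjusted p under 0.05. Both Snai2 probe sets lie to the right, 3 of 4 Zeb1 and both Cdh2 probe sets lie to the left, and 4 of 5 Zeb2 probe sets were not called.

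N-cadherin was lower. Cdh2 read 6.56, 6.85 and 6.97 in tumour 27 and 7.35, 7.53 and 7.59 in tumour B, against a lowest value of 8.11, a median of 8.47 and a highest of 9.24 in the lines. Both tumours were below all other samples. The difference was -1.40 ± 0.23 from the lines (adjusted p = 2.17e-04) and -1.60 ± 0.24 from hindbrain NSC (adjusted p = 8.24e-05). The second probe set, 1449244_at, gave -1.62 ± 0.26 from the lines (adjusted p = 1.74e-04).

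E-cadherin rose in the fit, from and to a low reading. Cdh1 read 3.33, 2.41 and 3.68 on the arrays of tumour 27 and 1.57, 1.83 and 1.49 on those of tumour B, against 1.07 to 1.40 in the lines. Tumour 27 was set apart and tumour B was just above the lines, and both tumour means lie within the guide range. The difference was 1.15 ± 0.24 from the lines (adjusted p = 0.00149) and 1.07 ± 0.25 from hindbrain NSC (adjusted p = 0.00322). Without tumour 27 it was 0.40 from the lines (adjusted p = 0.122) and 0.32 from hindbrain NSC (adjusted p = 0.24), so that the call rests on that tumour. Without tumour B it was 1.91 from the lines.

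Cdh11 was high in both tumours. It read 7.46, 7.67 and 7.69 in tumour 27 and 7.88, 7.76 and 7.65 in tumour B, above every line (4.99 to 7.09) and every NSC culture. Its difference from the lines was 1.39 ± 0.85 and was not called (adjusted p = 0.276). From hindbrain NSC it was 2.92 ± 0.88 (adjusted p = 0.0189). That call was lost without tumour 27, without tumour B, with IV ventricle NSC as the reference and in a fit of the groups compared alone, with adjusted p-values up to 0.111.

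Cell type markers were called as well, where 26.3% of all genes were, 14.5% higher and 11.8% lower. Of 6 neural crest and Schwann cell markers measured, 3 were higher than in the lines and 0 lower: Erbb3, a neuregulin receptor of Schwann cell precursors (6.92 ± 0.32, adjusted p = 7.55e-11, and 3.89 by the mean of its probe sets), Sox10, the neural crest and glial factor (5.83 ± 0.36, adjusted p = 2.95e-09), and Foxd3 (0.66 ± 0.16, adjusted p = 0.00399, lost without tumour B at 0.109), which read 2.31, within the guide range. Erbb3 lies within the guide range in the lines (2.25), so that its size may rest on a background reading. Ngfr, Cdh19 and Dhh were not called, and the differences over the list ran from -1.12 to 6.92. Against hindbrain NSC, 4 of the 6 were higher and 1 was lower, where 26.8% of all genes were called. The mean level of the list was 6.09 and 6.46 in the 2 tumours, 3.70 to 4.67 in the lines and 4.10 to 4.20 in hindbrain NSC. Without genes whose mean is under 3, 1 of the list was called. Of 8 mural and fibroblast markers, 3 were higher and 0 lower (0 without dim genes, Col1a1 lost without tumour B and Lum without tumour 27), with a list mean of 3.27 and 4.04 against 2.47 to 2.69 in the lines, and 5 of the 8 (Pdgfrb, Rgs5, Col1a2, Dcn and Lum) lay within the guide range in the tumours. Of 8 neural stem cell markers, 6 were lower and 0 higher, among them Fabp7 (-1.97 ± 0.17, adjusted p = 2.28e-07), the intermediate filament gene Nes (-2.04 ± 0.25, adjusted p = 1.17e-05, and -1.28 by the mean of its probe sets) and the glutamate transporter Slc1a3 (-1.88 ± 0.33, adjusted p = 3.53e-04). The list mean was 7.17 and 7.42 in the tumours and 8.14 to 9.37 in the lines, and 1 of the 8, Prom1, read 2.85, within the guide range. Their part in the changes of Snai2, Zeb1, Cdh2 and Cdh1 was not tested. Microglia and endothelial markers were called in 0 of 8 and 0 of 7 cases, and 7 of 8 and 7 of 7 of them lay within the guide range in the tumours. Granule neuron markers were called in 0 of 8 cases, and 6 of the 8 lay within the guide range in both tumours and lines. Of 7 choroid plexus and ependymal markers 1 was higher, Aqp1 (1.20 ± 0.32, adjusted p = 0.00864, lost without tumour 27). Without dim genes 0 of that list were called. In the tumours 6 of the 7, Aqp1 among them, lay within the guide range.

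**Figure D3:**
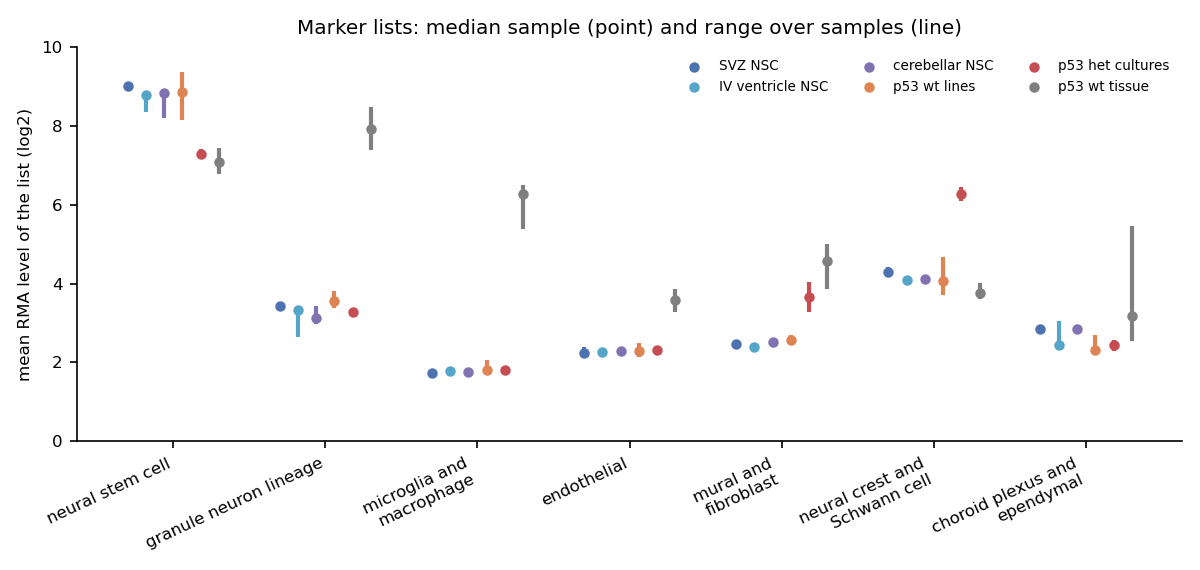
Mean RMA log2 level of each of 7 marker lists (y axis) by list (x axis) and group, with a point at the median sample and a line over the range of samples. The neural crest and Schwann cell list is highest in the 2 p53 het tumours (6.09 and 6.46), and the granule neuron, microglia and endothelial lists are highest in tissue.

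Calls among the partners of the 8 genes went in both directions in the p53 het tumours, and their counts stand beside the 26.3% called among all genes. Among 11 relatives of the Snail, Zeb and Twist factors, 2 rose and 2 fell, with a median difference of -0.08 beside 0.03 over all genes. Foxc2, a forkhead factor of mesenchyme, rose by 4.25 ± 0.37 (adjusted p = 2.20e-07) from a reading of 1.42 to 5.67, Prrx1 rose by 1.76 ± 0.36 (adjusted p = 0.00138, lost without tumour 27 at 0.0607), and Tcf4, an E-protein that pairs with helix-loop-helix factors, fell by 2.10 ± 0.16 (adjusted p = 3.71e-08). Among 8 corepressors, 1 rose, Hdac1 (0.89 ± 0.14, adjusted p = 1.51e-04), and 1 fell, Kdm1a (-0.28 ± 0.10, adjusted p = 0.0451), with a median of -0.20. The call of Kdm1a was lost in 13 of 18 alternatives, without either tumour among them.

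Among other cadherins both directions were seen. Of 14 other cadherins measured of 16 listed, 5 fell and 1 rose, with a median of -0.02. Cdh4, R-cadherin, fell by 1.73 ± 0.18 (adjusted p = 1.49e-06, and -1.12 by the mean of its probe sets), Cdh20 by 1.79 ± 0.21 (adjusted p = 6.03e-06) and Cdh10 by 1.54 ± 0.29 (adjusted p = 6.99e-04). Cdh8 rose from 1.27 to 1.70, within the guide range, a call lost in 11 of 17 alternatives. Without tumour B, 3 of the 14 were called, all lower. Of 11 catenins and adherens junction partners, 3 fell and 1 rose, with a median of -0.27. Ctnnd2, a delta-catenin of neurons, fell by 1.08 ± 0.18 (adjusted p = 2.89e-04, and -0.62 without tumour B), Ctnnd1, p120-catenin, by 0.66 ± 0.16 (adjusted p = 0.00554, lost without tumour B and with the mean of its probe sets), and Afdn, afadin, rose by 0.87 ± 0.17 (adjusted p = 8.76e-04). Without tumour B, 2 of the 11 were called, 1 in each direction.

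No epithelial gene was called, and some mesenchymal genes were. Of 18 epithelial genes, among them the keratins Krt8 and Krt18 and the adhesion gene Epcam, 0 were called by limma, with differences from -0.23 to 0.23 and a median of -0.01. With the mean of all probe sets of a gene 1 was called. Of 14 mesenchymal genes, 4 rose and 2 fell, with a median of 0.11. Postn, periostin, rose by 2.82 ± 0.25 (adjusted p = 1.93e-07), S100a4 by 3.37 ± 0.40 (adjusted p = 7.52e-06) and Col3a1, a fibrillar collagen, by 4.47 ± 0.69 (adjusted p = 1.16e-04), while Thy1 fell by 4.88 ± 0.90 (adjusted p = 5.42e-04). The size for Col3a1 rests on the tumour, with 7.01 without tumour 27 and 1.94 without tumour B, and both it and Postn lie within the guide range in the lines (1.32 and 2.33). Col1a1, also counted, was lost without tumour B (0.40, adjusted p = 0.126), and without dim genes 3 of the list were called. The list shares Col1a1, Col1a2 and Col3a1 with the mural and fibroblast markers. Of 12 Tgf-beta ligands, receptors and Smads, 2 rose and 2 fell, with a median of 0.24. Tgfbr2, the type II receptor, rose by 3.68 ± 0.43 (adjusted p = 6.03e-06, and 1.71 by the mean of its probe sets), Tgfb3 by 1.47 ± 0.28 (adjusted p = 7.42e-04), and Ski, a Smad corepressor, fell by 0.72 ± 0.15 (adjusted p = 0.00153, lost without tumour B and with the mean of its probe sets).

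**Figure D4:**
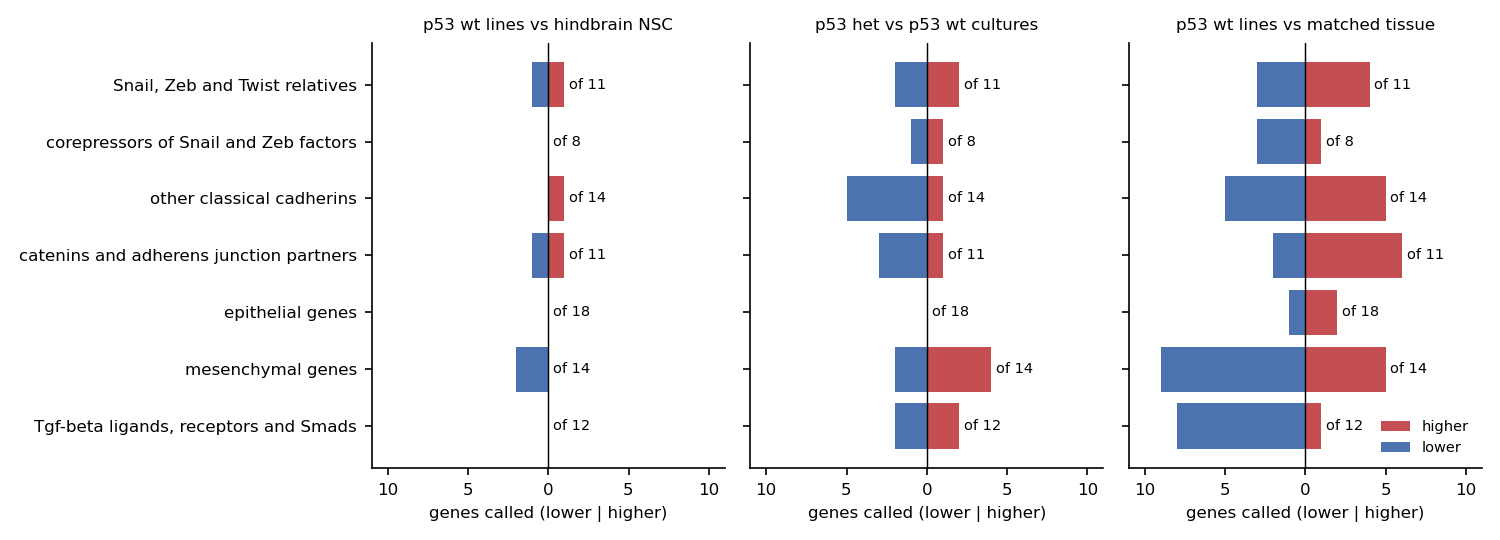
Number of genes called higher (right, red) and lower (left, blue) in 7 gene lists (y axis) in 3 comparisons, with the number of genes measured beside each bar. In the p53 het tumours 5 of 14 other cadherins were lower and 0 of 18 epithelial genes were called, and between lines and tissue 14 of 14 mesenchymal genes were called, 5 higher and 9 lower.

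Between p53 wt lines and hindbrain NSC, where 9.56% of all genes were called, the same lists gave these counts. The relatives of the factors had 1 higher and 1 lower of 11, the corepressors 0 of 8 called, the catenins 1 higher and 1 lower of 11, the mesenchymal genes 0 higher and 2 lower of 14, and the epithelial and Tgf-beta lists 0 of 18 and 0 of 12. The medians ran from -0.26 for the catenins to 0.03, beside 0.00 over all genes. In the other cadherins 1 of 14 was called, Cdh19, which marks neural crest derived glia, at 1.92 ± 0.28 (adjusted p = 6.02e-04). Among the mesenchymal genes Itga5, an integrin subunit, was lower by -1.74 ± 0.24 (adjusted p = 3.76e-04). Both of these calls held in all 23 alternatives, with Itga5 at -0.60 by the mean of its probe sets. The calls among the relatives and catenins fell to 0 or 1 in several, with 0 relatives called without the line of 74 or of 9 and 0 catenins without cerebellar replicate 2. The mesenchymal count fell to 1 without cerebellar replicate 3 or IV ventricle replicate 2.

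The fourth comparison sets each p53 wt line beside the tissue of its own tumour. Of the 8 members, 2 were called, both higher in the lines, where 49.6% of all genes were called, 26.6% higher and 23.1% lower. The share of members called was below that of all genes.

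Zeb1 was higher in the line in 8 of 8 tumours. Tissue read 9.41 to 9.82, with a median of 9.70, and the lines 10.32 to 11.04, with a median of 10.74. The groups did not overlap, and the gain per tumour ran from 0.59 in tumour 49 to 1.64 in tumour 91. The difference was 1.05 ± 0.10 (adjusted p = 1.56e-05). It was 1.25 in the 4 tumours whose line and tissue share a name mark (adjusted p = 6.70e-04) and 0.85 in the other 4 (adjusted p = 0.0032). The probe sets 1443005_at (1.22 ± 0.10, adjusted p = 3.90e-06) and 1446127_at (0.47 ± 0.10, adjusted p = 0.00368) were called in the same direction. The lowest tissue value, 9.41, was above both p53 het tumours, 7.87 and 7.88, a comparison that was not tested.

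Cdh11 was also higher in the line in 8 of 8 tumours, by very different amounts. Tissue read 4.17 to 5.05, with a median of 4.90, and the lines 4.99 to 7.09, with a median of 6.64. The gain was 2.51 in tumour 68, 2.12 in 74 and 2.06 in 49, and 0.32 in tumour 83 and 0.02 in tumour 92, the lines already named as low. The difference was 1.48 ± 0.27 (adjusted p = 9.66e-04), with 1.36 within tumours that share a mark (adjusted p = 0.0217) and 1.61 in the others (adjusted p = 0.0177). The second probe set, 1435120_at, gave 1.13 ± 0.24 (adjusted p = 0.00289), although it lay within the guide range in all 8 tissues.

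**Figure D5:**
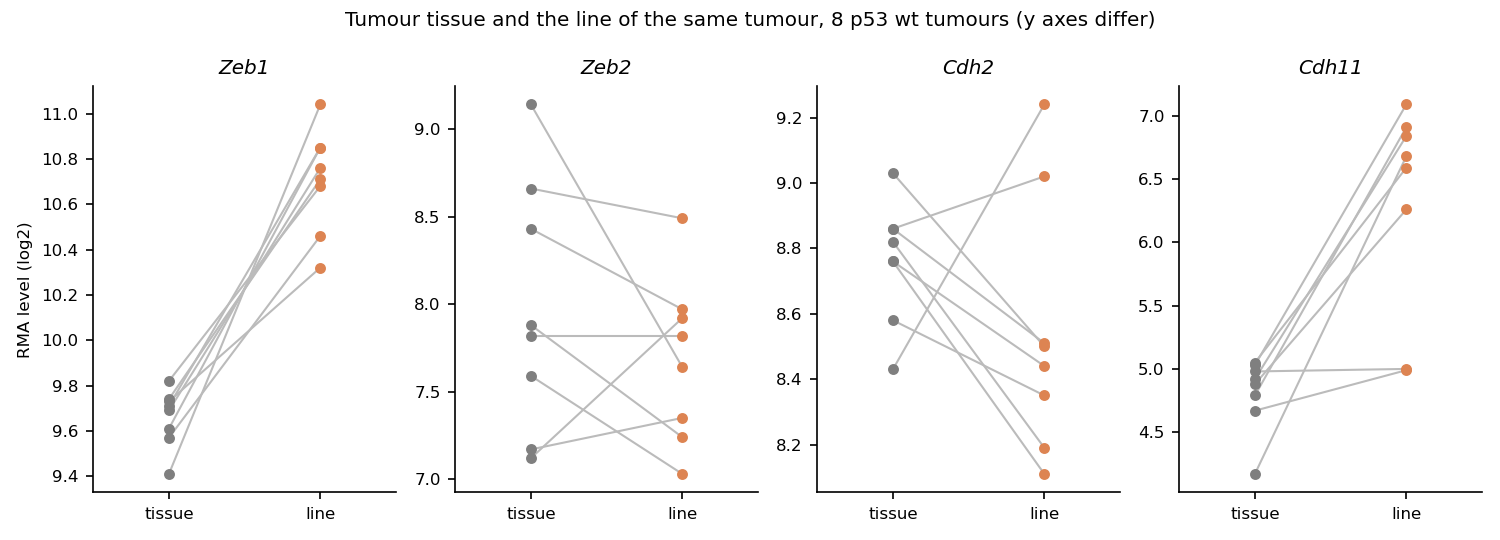
RMA log2 level (y axis, different for each gene) of Zeb1, Zeb2, Cdh2 and Cdh11 in tumour tissue (grey) and the line of the same tumour (orange), joined by a line for each of the 8 p53 wt tumours. Zeb1 and Cdh11 are higher in the line in 8 of 8 tumours, Zeb2 in 3 and Cdh2 in 2.

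Zeb2 and Cdh2 were not called. Zeb2 read 7.12 to 9.14 in tissue, with a median of 7.85, and was higher in the line in 3 of 8 tumours, with changes from -1.50 in tumour 9 to 0.81 in tumour 68. Its difference of -0.29 ± 0.21 was not called (adjusted p = 0.268), while the probe set 1434298_at was called lower in the lines (-0.54 ± 0.18, adjusted p = 0.0326). Cdh2 read 8.43 to 9.03 in tissue and was higher in the line in 2 of 8 tumours, 49 and 68. Its difference of -0.22 ± 0.15 was not called (adjusted p = 0.273). It was called in the 4 tumours with a shared mark (-0.46, adjusted p = 0.0106) and without tumour 49, while the 4 other tumours gave 0.02. Snai1, Snai2, Twist1 and Cdh1 stayed within the guide range in all 16 samples. Snai1 was called without tumour 92 (0.23, adjusted p = 0.0316).

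Tissue and lines differed in their cell types by marker. All 8 granule neuron lineage markers, all 8 microglia markers and all 7 endothelial markers were lower in the lines, as were 7 of 8 mural and fibroblast markers. Among all genes 49.6% were called, 26.6% higher and 23.1% lower. Without dim genes 4 microglia, 4 endothelial and 2 mural and fibroblast markers were called lower. The list means in tissue were 7.40 to 8.47, 5.38 to 6.49, 3.29 to 3.87 and 3.85 to 5.01, and in the lines 3.39 to 3.81, 1.69 to 2.05, 2.14 to 2.49 and 2.47 to 2.69. Of the microglia markers, 8 of 8 lay within the guide range in the lines and 1 of 8, Itgam, in tissue. So did 6 of 8 granule neuron, 7 of 7 endothelial and 7 of 8 mural and fibroblast markers in the lines. In tissue these counts were 0, 3 and 2. In the other direction, 6 of 8 neural stem cell markers were higher and 2 lower in the lines. Their part in the changes of Zeb1 and Cdh11 was not tested.

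Calls among partner genes also went both ways between lines and tissue, where 49.6% of all genes were called. Of the 11 relatives 4 were higher and 3 lower in the lines, with a median of 0.09 beside 0.06 over all genes. Prrx1 was higher by 3.96 ± 0.18 (adjusted p = 7.51e-08). The neuronal Snail relatives Scrt2 (-2.75 ± 0.13, adjusted p = 6.50e-08) and Scrt1 (-2.30 ± 0.12, adjusted p = 1.62e-07) were lower. Prrx1 read 3.22 in tissue, and Scrt2 and Scrt1 read 3.24 and 3.19 in the lines. These readings lie within the guide range, so that the sizes may rest on a background reading. Of 14 other cadherins 5 were higher and 5 lower (5 and 1 without dim genes), with a median of 0.14. They were led by Cdh19 (4.54 ± 0.20, adjusted p = 5.71e-08), Cdh13 (2.54 ± 0.13, adjusted p = 1.76e-07) and Cdh10 (2.73 ± 0.21, adjusted p = 2.49e-06), with Cdh7 lower (-2.62 ± 0.29, adjusted p = 3.25e-05). The Cdh19 mean in tissue lay within the guide range. Of 11 catenins and partners 6 were higher and 2 lower, with a median of 0.37. Ctnnd2 was higher by 1.57 ± 0.09 (adjusted p = 2.44e-07), Ctnnd1 by 0.63 ± 0.07 (adjusted p = 4.88e-05), and Afdn was lower by -1.04 ± 0.09 (adjusted p = 8.63e-06). Of 8 corepressors 1 was higher and 3 lower, with a median of -0.18, and 1 and 1 in the 4 tumours with unshared marks.

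The mesenchymal list split by gene. All 14 genes were called, 5 higher in the lines and 9 lower, with a median of -0.36. In the 4 tumours with unshared marks 8 were called, 4 in each direction. Vim, vimentin, also expressed by neural stem cells, was higher by 2.42 ± 0.12 (adjusted p = 1.53e-07), while Col3a1 (-3.78 ± 0.29, adjusted p = 2.45e-06) and Mmp2 (-2.29 ± 0.20, adjusted p = 7.11e-06) were lower. Of 12 Tgf-beta genes 1 was higher and 8 lower, with a median of -0.39 (5 called within each set of 4 tumours), led by Skil (-2.0 ± 0.11, adjusted p = 2.12e-07) and Tgfbr2 (-2.08 ± 0.19, adjusted p = 9.59e-06). By the mean of all probe sets of a gene, lines minus tissue gave -0.75 for Tgfbr2, -1.36 for Scrt2 and -0.53 for Afdn. The same difference was 1.51 for Cdh10 and 2.34 for Prrx1, and each of these genes was still called. Of 18 epithelial genes 2 were higher and 1 lower, with a median of 0.10, and each of the 3 was lost in 1 or more alternatives, the count running from 0 to 6.

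Ordered by group mean, the level of each member ran as follows. For Zeb1 the p53 wt lines (10.71) stood first, before SVZ (10.37), cerebellar (10.36) and IV ventricle NSC (10.33), whose ranges overlapped with their neighbours, and then tissue (9.66) and the p53 het tumours (7.87), each without overlap with the group above. For Snai2 the p53 het tumours (5.88) stood first without overlap, and the other 5 groups, 2.07 to 1.69, overlapped. For Cdh2 SVZ NSC (9.19) did not overlap with the cerebellar NSC next to them (8.77), tissue (8.76), IV ventricle NSC (8.71) and lines (8.55) overlapped in turn, and the p53 het tumours (7.14) were last without overlap. For Cdh11 the p53 het tumours (7.68) were first without overlap, followed by SVZ NSC (7.13), lines (6.30), IV ventricle NSC (4.99), tissue (4.81) and cerebellar NSC (4.54), all of which overlapped with the next. For Zeb2 all neighbours overlapped, from tissue (7.98) to IV ventricle NSC (6.88). Snai1, Twist1 and Cdh1 were ordered within the guide range, where the order has no use.

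Of the 8 members, Snai2 and Cdh11 had an SD over 1 across the 27 samples, and the genes most like them were sought by the root mean square (RMS) difference of centred log2 levels over all 27. For Snai2, whose own RMS about its mean was 1.09, these were Fam114a1 (0.35), Chadl (0.35) and Crybg1 (0.36). Their means were 7.60, 7.85 and 5.33 in the p53 het tumours and at most 4.24, 3.98 and 1.57 in any other group. Since they were picked by likeness to Snai2 over the same samples, this pattern follows from the choice. For Cdh11, with an RMS of 1.34, they were Plec (0.78), which encodes the cytoskeletal linker plectin, Pllp (0.78), which encodes the myelin protein plasmolipin, and Limch1 (0.86). All 3, picked in the same way, had their lowest group mean in tissue (4.40, 5.82 and 5.53). Their means were higher in the p53 het tumours (7.33, 8.62 and 6.85) than in the lines (6.14, 7.70 and 6.45).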

How the data were processed

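Biotin-labelled cRNA from total RNA was hybridised to 31 Affymetrix mouse arrays, per the labels. The authors deposited log2 values for each probe set, computed with RMA per the submitters' processing notes. The version of RMA was not given in the sources used here. RMA normalizes arrays to one another, so that changes shared by all genes cannot be seen. The values, 0.417 to 12.9, were used as deposited. The number of arrays limits the precision.

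Of 45101 probe sets, 34958 carried 1 symbol, 932 several and 9211 were not listed; the last 2 kinds were not used. Symbols were checked by Entrez identifier (34754 matched, 0 changed). The brightest probe set by mean stood for each of 18194 genes. The 3 technical replicates of tumours 27 and B were averaged, leaving 27 samples. limma 3.58.1 in R 4.3.3 (lmFit, eBayes, two-sided, Benjamini-Hochberg over all genes, threshold 0.05) was fitted to the 9 NSC arrays, to the 19 cultures (hindbrain NSC averaged over its 2 regions) and to the 16 lines and tissues with the tumour as a block. The scripts were tested on simulated data. Promoter windows are from RefSeq (GRCm38.p6). Alternatives covered array scaling, dim genes, probe sets, the samples fitted, name marks, the replicate block and leaving out single samples. Figures were drawn with Python 3.11.15 and matplotlib 3.10.9.

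NSC replicate numbers occur in all 3 regions. Deviations of same-numbered cultures from their group means correlated at 0.254 to 0.324 between IV ventricle and SVZ. The correlations were 0.175 to 0.341 between cerebellum and SVZ and -0.138 to 0.377 between IV ventricle and cerebellum. The labels do not say that a replicate number marks an animal, so the main fits used no replicate block. The block was run as an alternative in all 3 NSC comparisons. Any pairing by number would come from the data, not the labels.

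Genes named are the 8 members, the 3 genes most like each member with an SD over 1, and, of each of 14 gene lists, up to 3 called genes with the smallest p and up to 1 of the other direction; 5 listed genes were not measured. A few others are named where a count rests on them, after their values were seen. The members, lists and tests were chosen with earlier results of these data known.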

Additional observations from a re-analysis of the deposited data

Results flagged for a closer look

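The tumour tissue of 68 stood apart for Cdh11. It read 4.17, the lowest of the 8 tissues, and its gap to the next was 0.562 of the range of the group, above Dixon's critical value for 8 samples. In all, 16 groups of 8 samples were examined, and chance marks about 1 in 20.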

How the results depend on the processing

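Between 14 and 23 alternatives were run per comparison. The calls of Snai2, Zeb1 and Cdh2 in the p53 het tumours (against lines and against hindbrain NSC) and of Zeb1 and Cdh11 between lines and tissue held in every alternative that measured the gene. The number of members called changed as follows, and the cause was not tested except where fewer genes or samples entered. IV ventricle against SVZ NSC went from 0 to 1 with a trended robust prior. Cerebellar against SVZ NSC went from 0 to 1 with the mean of all probe sets or only the groups compared and to 2 with the mark as a block. Lines against hindbrain NSC went from 1 to 0 with the mark as a random block and with IV ventricle or cerebellar NSC as the only reference, and ran from 0 to 2 leaving out single cultures. Lines against SVZ NSC went from 1 to 0 with arrays scaled on their 75th percentile, without dim genes (mean under 3) and with the mark as a random block, and ran from 0 to 2 leaving out single cultures. The p53 het tumours against hindbrain NSC went from 5 to 3 without dim genes and with only the groups compared, and ran from 3 to 5 leaving out single cultures. Against the lines they went from 4 to 2 without dim genes, and ran from 3 without tumour 27 to 5 without tumour B. Lines against tissue went from 2 to 3 in tumours with a shared mark and without tumour 92 or 49. Twist1 in p53 het tumours against lines ran from -0.03 to 0.90 leaving out single cultures, and Cdh2 in lines against tissue was 0.02 in tumours with unshared marks. Of differences not called, 59 changed sign in an alternative. Of 84 calls of named list genes, 61 held throughout, 23 were lost in 1 or more and 0 changed sign.

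As a paired analysis, the replicate block left 0 of 8 members called in all 3 NSC comparisons, as without it, with 0, 196 and 280 of all genes called, and it changed no call of a member.

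Counts over all genes moved by more than 1.5 times in some settings. IV ventricle against cerebellar NSC gave 9 with the mark as a block and 7 without IV ventricle replicate 2. IV ventricle against SVZ NSC (139) gave 51 to 86 without SVZ replicate 1 or 2 or IV ventricle replicate 1. Cerebellar against SVZ NSC (201) gave 349 with only the groups compared, 728 with the mark as a block and 61 to 128 without single cultures. Lines against hindbrain NSC (1740) gave 820 with the mark as a random block, 593 and 673 with IV ventricle and cerebellar NSC as the only reference and 1060 without IV ventricle replicate 2. Lines against SVZ NSC (1064) gave 557 with the random block and 399, 323 and 704 without SVZ replicates 1, 2 and 3; scaling on the 75th percentile turned 376 higher and 688 lower into 481 and 529. Lines against tissue (9033) gave 5935 in the 4 tumours with unshared marks.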

Other observations

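The p53 het tumours differed from each other in several members, each tumour being a single sample with 3 technical replicate arrays, so that no test applies. Cdh2 was at 6.79 ± 0.21 in tumour 27 and 7.49 ± 0.12 in tumour B (SD over the 3 arrays), without overlap. Zeb2 read 8.06 ± 0.08 and 7.29 ± 0.55, again without overlap, and Cdh1 3.14 ± 0.66 and 1.63 ± 0.18. Zeb1 read 7.88 ± 0.13 and 7.87 ± 0.05.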
